A study of Mus musculus with 4 samples.

Results

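The RNA polymerase II initiation machinery was followed as 57 genes out of 21389 with a symbol on the array. They encode the TAF subunits of TFIID (16 genes), TFIIE and TFIIF (4), TFIIH (9), RNA polymerase II (12) and the Mediator complex (16). Members were taken by the gene name that the scanner files give to a probe, and each gene was represented by its brightest probe well above background, a choice that does not use the ratio. All 57 genes had a probe, 106 probes in all, and 56 could be tested. The exception was Ercc2, whose single probe was not well above background.

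Pools of whole mouse embryos homozygous for the Btaf1 allele V1330M were set against pools of wild-type embryos on 4 two-colour Agilent arrays. In the stage-matched set, pools were paired by somite number; in the age-matched set, litter mates came first and larger somite differences were accepted. Embryos of 3 to 5 somites were used where possible, all from hybrids of mutagenized C57BL/6J and FVB/NJ mice with 50 to 90% FVB/NJ, and 300 ng of total RNA was labelled per dye. Both arrays of a set held the same pair of pools, first with the mutant in Cy5 and then with the dyes exchanged, so a set counted as 1 replicate and n = 2. How many embryos made up a pool, whether embryos entered both sets and whether yolk sacs stayed on are not given in the sources used here. The labels do not give the sex of the embryos.

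Transcription by RNA polymerase II starts when the general transcription factors assemble on a promoter. TFIID, made of the TATA-binding protein TBP and its TAFs, recognises the promoter. TFIIB, TFIIF and the polymerase then join. TFIIE brings in TFIIH, which opens the DNA and phosphorylates the polymerase tail, and Mediator links the assembly to activators at enhancers. BTAF1 is an ATPase that strips TBP from DNA, and so acts on the pool of TBP from which TFIID and the other TBP complexes are built.

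Values are log2 ratios, mutant over wild type, so a positive value means a higher level in the mutant. Where 4 ratios are listed, they run from the stage-matched array with the mutant in Cy5 and the one with the mutant in Cy3 to the age-matched arrays in the same dye order. Means are given with the SD between the 2 sets, and p-values are from limma adjusted by Benjamini-Hochberg across the 21940 probes tested. Positions of probes follow the files' build, mm9; exons and untranslated regions are not given here. Between 52.9% and 59.6% of the 43379 spots of an array were well above background in a dye, and 0 were saturated. The precision of every value is limited by the number of arrays. Btaf1 itself read 0.28, -0.12, 0.20 and 0.048, with a mean of 0.10 ± 0.031 (SD, n = 2; limma adjusted p = 0.555); the allele replaces 1 amino acid, so the transcript level does not check the labels. Because whole embryos were pooled, fewer cells of a type and less RNA per cell cannot be told apart.

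No tested initiation gene differed between mutant and wild-type embryos by more than the spread allowed to be called. Of the 56 tested members, 0 passed an adjusted p of 0.05 in limma, in a comparison that called 4.91% of all 13599 tested genes (2.14% higher and 2.77% lower in the mutant). At an unadjusted p under 0.05 there were 6 members, or 10.7%, against 22.7% of all genes. These were Taf9b, Taf11, Mnat1 and Med23 with positive means and Polr2f and Med15 with negative ones. Over the 86 tested member probes, 0 passed, against 4.81% of all tested probes, and 11 had an unadjusted p under 0.05, or 12.8% against 22.9%. The lowest adjusted p was 0.0716, for a second probe of Taf5, a WD-repeat subunit of TFIID, with a mean of 0.38 where the brightest Taf5 probe averaged 0.095. No member (0 of 56) reached a 1.5-fold difference with 1 sign on all 4 arrays, as 2.1% of all genes did.

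The values of the members lay close together. Their means ran from -0.30 for Polr2f to 0.30 for Med23, and 29 of 56 were above 0, against 54.3% of all genes. The smallest difference that limma called for any gene was 0.40 in log2 units, a 1.32-fold change. By their brightest probes, all members lay inside the range in which nothing was called. In the main setting, the 95% limma interval of the brightest probe's ratio stayed within 1.5-fold either way for 56 of 56 members. It did so for 90.9% of all genes. The lowest bound was a ratio of 0.704, for Polr2f, and the highest 1.43, for Taf9b. This depends on the processing, since with the scanning software's processed signals the mean of Taf9b was 0.69, beyond 1.5-fold. It also depends on the probe. For the tested Taf1 probe A_52_P660753 the interval of the ratio ran from 0.51 to 0.87, and for a second Taf5 probe it reached 1.53. The median over the members was 0.016, with 0.029 in the stage-matched set and -0.021 in the age-matched set. Over all tested genes the median was 0.018. With each array centred on its median in place of the intensity-dependent correction, the median of the members was -0.069 and that of all probes -0.074.

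**Figure D1:**
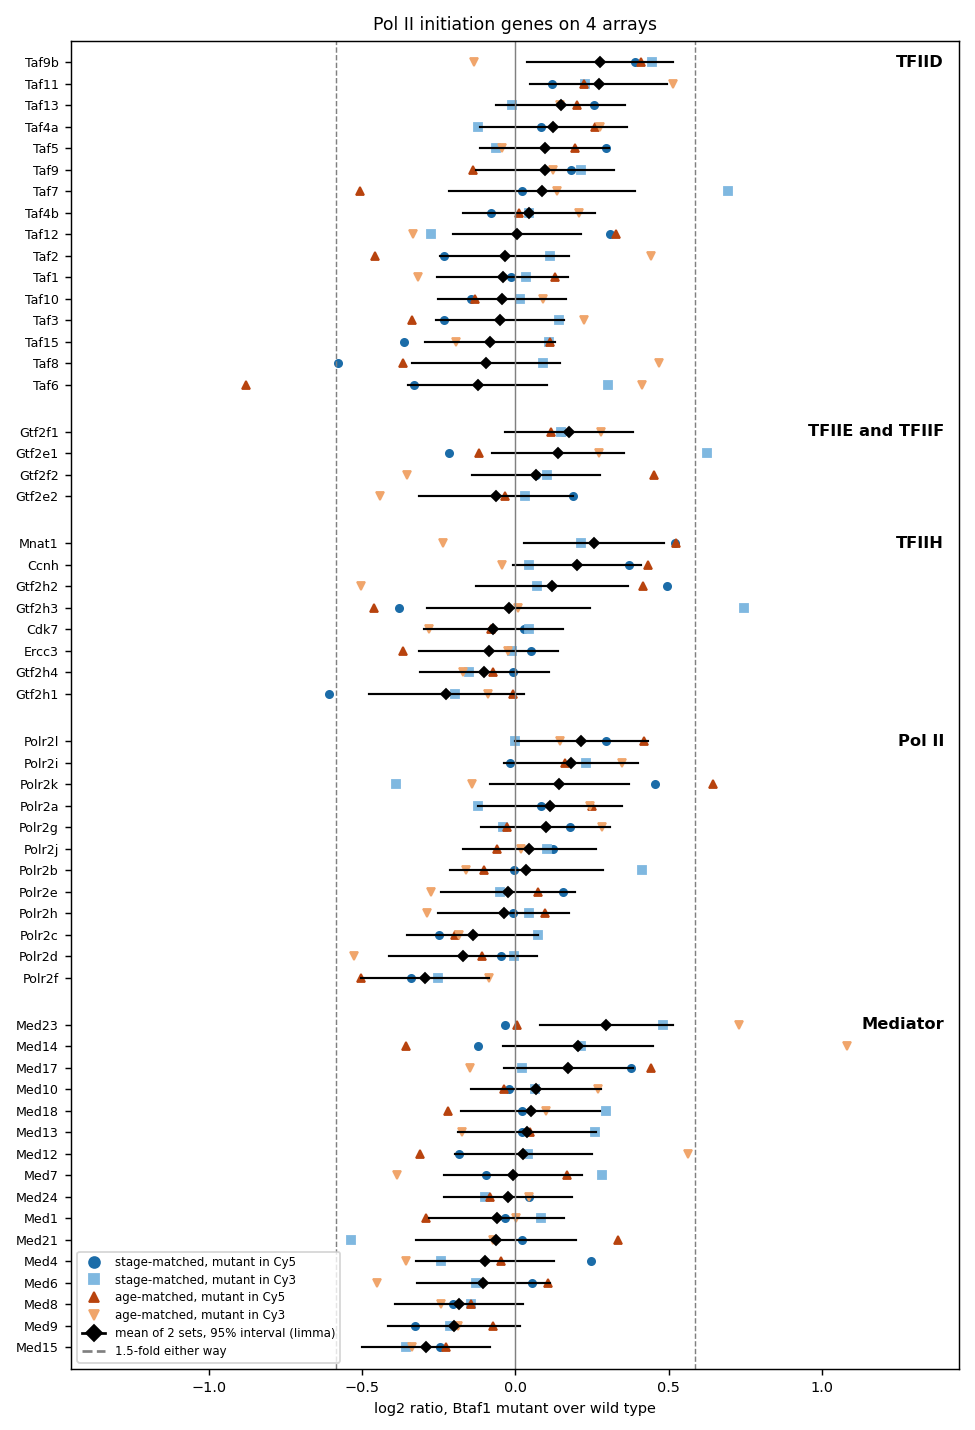
Log2 ratios of mutant over wild type for the 56 tested members, grouped by complex and sorted by mean. Coloured symbols are the 4 arrays, black diamonds the mean of the 2 sets with its 95% limma interval, and dashed lines a 1.5-fold difference; all 56 intervals lie between the dashed lines, and the means run from -0.30 (Polr2f) to 0.30 (Med23).

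Among the TFIID genes, 9 of 16 had positive means and 7 negative ones, 0 passed the test, and the median was 0.026. Taf1, the large scaffold subunit that holds TFIID together, read -0.014, 0.034, 0.13 and -0.32, with a mean of -0.042 ± 0.074 (SD, n = 2; limma adjusted p = 0.83). Its 4 ratios fell on both sides of 0 in both sets. Taf10, a histone-fold subunit that TFIID shares with the coactivator complex SAGA, had a mean of -0.044 ± 0.032. Taf4a, which forms a histone-fold pair with Taf12, averaged 0.12 ± 0.20, and its paralog Taf4b averaged 0.046 ± 0.090.

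Taf9b gave the highest mean of the complex. It is a paralog of Taf9, and both products pair with Taf6 through a histone fold. Taf9b (minus strand, chrX:103402537-103402596) read 0.39, 0.45, 0.41 and -0.14, a mean of 0.28 ± 0.20 (SD, n = 2), or 1.21-fold higher in the mutant (limma adjusted p = 0.161). It was positive on 3 of 4 arrays, the exception being the age-matched array with the mutant in Cy3. With the scanning software's own processed signals its mean was 0.69 and it passed the test (limma adjusted p = 0.0278). It was the one member that did so under any of the settings tried. Its log2 intensities were low, at 7.18, 7.52, 7.14 and 6.71 in the mutant channel and 6.79, 7.08, 6.73 and 6.84 in the wild-type channel. The other Taf9b probe was not well above background, was not tested, and averaged 0.070. Taf9 read 0.18, 0.21, -0.14 and 0.12, with a mean of 0.095 ± 0.15 (limma adjusted p = 0.62). The brightest probes of the paralogs shared a run of at most 5 bases. Another probe that carries the name Taf9 in the files averaged -0.15, and its accession belongs to Ak6 in the reference table.

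Taf11, which pairs with Taf13 in TFIID, was one of 2 members above 0 on all 4 arrays. The probe (minus strand, chr17:28038272-28038331) read 0.12, 0.23, 0.23 and 0.52, with a mean of 0.27 ± 0.14 (SD, n = 2), 1.21-fold higher in the mutant (limma adjusted p = 0.148). A second Taf11 probe that overlaps the first by 40 bases averaged 0.23. Its partner Taf13 averaged 0.15 ± 0.037. Taf6 had the lowest mean of the complex, -0.12 ± 0.15, from single ratios of -0.33, 0.30, -0.88 and 0.41. The sign of Taf6 followed the dye that carried the mutant and not the set. Its mean was 0.035 without the stage-matched array with the mutant in Cy5 and 0.20 without the age-matched one.

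One probe of Taf1 stood apart from the others of that gene. Its 4 tested probes averaged -0.042, 0.022, 0.012 and -0.59. The last, A_52_P660753, read -0.85, -1.12, -0.42 and 0.032, so it was low on 3 of 4 arrays (mean -0.59 ± 0.56, SD, n = 2; limma adjusted p = 0.0851). It was lower in the stage-matched set than in the age-matched set by a difference of -0.80 (limma adjusted p = 0.00147), the one probe of 86 tested member probes with such a call, against 2.31% of all tested probes. In the files' coordinates it lies between tested Taf1 probes with means of 0.012 and 0.022, so the value of Taf1 depends on the probe. The probe is shown because no other member probe carries that difference (mm9, plus strand, chrX:98757550-98757609).
Taf1 A_52_P660753: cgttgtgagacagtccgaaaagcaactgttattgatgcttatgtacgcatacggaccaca

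The TFIIE and TFIIF genes had the highest median of the complexes, 0.10 over 4 genes, with 3 positive, 1 negative and 0 past the test. Gtf2f1, the large subunit of TFIIF, which escorts the polymerase to the promoter, was above 0 on all 4 arrays at 0.15, 0.15, 0.12 and 0.28. Its mean was 0.18 ± 0.033 (SD, n = 2), 1.13-fold higher in the mutant (limma adjusted p = 0.30). The small TFIIF subunit Gtf2f2 averaged 0.067 ± 0.025 by its brightest probe, and a second tested probe averaged -0.13 and was below 0 on all 4 arrays (limma adjusted p = 0.463). Gtf2e1, the large subunit of TFIIE, averaged 0.14 ± 0.090, with ratios of -0.22, 0.63, -0.12 and 0.27 whose sign followed the dye. Gtf2e2, the small subunit, read 0.19, 0.031, -0.034 and -0.44. Both stage-matched arrays were above 0 and both age-matched arrays below it, with a mean of -0.064 ± 0.25 (limma adjusted p = 0.778).

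In TFIIH the median was -0.047 over 8 tested genes, with 3 positive and 5 negative means and 0 past the test. The kinase module, whose cyclin-dependent kinase phosphorylates the polymerase tail, had 2 positive means of 3 and a median of 0.20. The core had 1 of 5 and a median of -0.088, and the difference between the modules was not tested. In the kinase module, Mnat1, the assembly factor, read 0.52, 0.22, 0.52 and -0.24. It was positive on 3 of 4 arrays, with a mean of 0.26 ± 0.16 (SD, n = 2; limma adjusted p = 0.174). Ccnh, the cyclin, averaged 0.20 ± 0.0093 from 0.37, 0.043, 0.43 and -0.044 (limma adjusted p = 0.237). Cdk7, the kinase itself, averaged -0.072 ± 0.15, from 0.029, 0.046, -0.080 and -0.28. In the core, Gtf2h1 was the lowest and read -0.61, -0.20, -0.0077 and -0.089. It was below 0 on all 4 arrays, with its lowest values in the stage-matched set and a mean of -0.23 ± 0.25 (limma adjusted p = 0.27). Ercc3, the translocase that opens promoter DNA, averaged -0.088 ± 0.15. Ercc2, the helicase better known from DNA repair, was not tested, since its probe did not stand well above background in mutant or wild type on every array.

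By the scanner's gene names, tested probes of both signs were found for 11 of the 19 members with more than 1. For Taf9 this rests on the probe assigned to Ak6, and its other tested probes were both positive. Taf1 and Ccnh were the members in which probes of both signs lay at least 0.5 apart. Of 4 tested Ccnh probes, 3 averaged 0.20, 0.19 and 0.24, and A_51_P270146 averaged -0.27 from -0.43, -0.028, -0.47 and -0.15. That probe was below 0 on every array (limma adjusted p = 0.135) and its 60 bases span 5435 bases of genome in the files, so it crosses at least 1 splice junction (mm9, plus strand, chr13:85330431-85335865). The 3 others each cover 60 contiguous bases, and 1 of them, with a mean of 0.24, lies on the minus strand in the files while the rest lie on the plus strand. The junction probe is shown because it sets the sign of Ccnh apart.
Ccnh A_51_P270146: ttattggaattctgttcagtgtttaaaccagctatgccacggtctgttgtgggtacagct

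**Figure D2:**
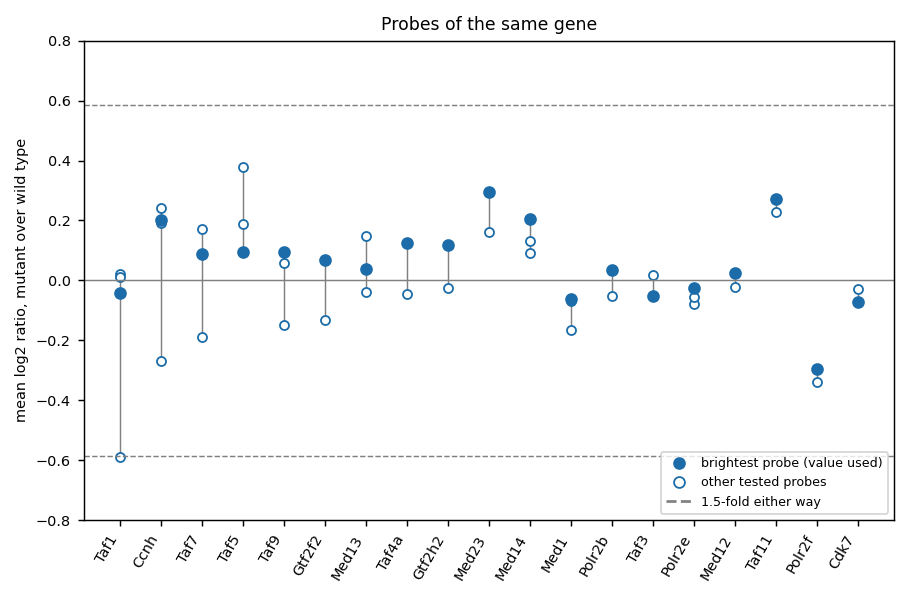
Mean log2 ratio of mutant over wild type of each tested probe (circles) for the 19 members with more than 1 tested probe, sorted by the range over a gene's probes. The lowest Taf9 circle is the probe that the reference names assign to Ak6. Filled circles are the brightest probe, and dashed lines mark 1.5-fold; Taf1 has 1 probe at -0.59 with the rest near 0, and Ccnh has 1 at -0.27 with the rest from 0.19 to 0.24.

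Of the 12 RNA polymerase II subunits, 7 had positive and 5 negative means, 0 passed the test and the median was 0.041. The catalytic subunit Polr2a, which carries the tail repeats, read 0.085, -0.12, 0.25 and 0.24, with a mean of 0.11 ± 0.19 (SD, n = 2; limma adjusted p = 0.561). Polr2b, which closes the active centre together with Polr2a, read -0.0050, 0.41, -0.10 and -0.16, with a mean of 0.036 ± 0.24. The 5 subunits shared with RNA polymerases I and III had a median of -0.025 and included both extremes of the enzyme. The 7 subunits found in RNA polymerase II alone had a median of 0.046.

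Polr2f, a small shared subunit, had the lowest mean of all members. Its brightest probe gave log2 intensities of 12.37, 12.51, 12.08 and 12.11 in the mutant channel, against 12.71, 12.76, 12.58 and 12.20 in the wild-type channel of the same arrays. The channels overlapped between arrays, but on each array the mutant was the dimmer one. The ratios were -0.34, -0.25, -0.50 and -0.087, with a mean of -0.30 ± 0.0015 (SD, n = 2), 1.23-fold lower in the mutant with a 95% limma interval of the mean from -0.51 to -0.087 (adjusted p = 0.105). A second Polr2f probe averaged -0.34 (limma adjusted p = 0.0771), with ratios of -0.34, -0.43, -0.78 and 0.20. Both probes are shown because they read the member with the lowest mean and share 42 bases, in capitals, so they are not independent readings. In the files both span more than 60 bases of genome, as probes across a splice junction do, on the plus strand of mm9, A_52_P276222 at chr15:78975036-78976484 and A_51_P120729 at chr15:78971859-78975077.
Polr2f A_52_P276222: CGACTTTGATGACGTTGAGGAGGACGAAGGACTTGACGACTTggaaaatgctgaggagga
Polr2f A_51_P120729: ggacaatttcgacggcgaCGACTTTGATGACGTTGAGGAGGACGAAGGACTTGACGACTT

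At the other end, the shared subunit Polr2l read 0.30, -0.00052, 0.42 and 0.15, with a mean of 0.22 ± 0.095 (SD, n = 2; limma adjusted p = 0.22). Polr2d, which with Polr2g forms the stalk of the enzyme, read -0.046, -0.0034, -0.11 and -0.53. It was below 0 on all 4 arrays, but 1 age-matched array held most of its mean of -0.17 ± 0.21 (limma adjusted p = 0.377). Its stalk partner Polr2g averaged 0.098 ± 0.041.

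The 16 Mediator genes had a median of -0.015, with 7 positive and 9 negative means and 0 past the test. The head module had a median of -0.028 over 4 genes, the middle -0.062 over 6, the tail and scaffold 0.090 over 4, and the kinase module 0.032 over 2. Med15 and Med23, both tail subunits through which activators reach Mediator, lay at opposite ends. Med15 (minus strand, chr16:17651780-17651839) read -0.25, -0.36, -0.23 and -0.34, with a mean of -0.29 ± 0.013 (SD, n = 2), 1.22-fold lower in the mutant (limma adjusted p = 0.108). Its 4 ratios were close to each other in both sets and both dye orientations. The log2 intensities were 8.96, 8.98, 8.75 and 8.45 for Med15 in the mutant channel, against 9.21, 9.33, 8.98 and 8.79 in the wild-type channel.

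Med23 had the highest mean of all members, 0.30 ± 0.10 (SD, n = 2), 1.23-fold higher in the mutant (limma adjusted p = 0.115). Its ratios of -0.033, 0.48, 0.0061 and 0.73 were near 0 on both arrays with the mutant in Cy5 and high on both with the mutant in Cy3. A second Med23 probe was positive on all 4 arrays at 0.21, 0.079, 0.25 and 0.11, with a mean of 0.16 (limma adjusted p = 0.339). The brightest probe is shown as the one behind the highest member value (mm9, plus strand, chr10:24633176-24633235).
Med23 A_51_P190124: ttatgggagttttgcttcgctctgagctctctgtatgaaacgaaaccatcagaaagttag

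The remaining Mediator genes lay between these ends. Med14, the scaffold that joins the modules, averaged 0.20 ± 0.22 with 1 ratio of 1.08 on the age-matched array with the mutant in Cy3 and -0.12, 0.22 and -0.36 on the others. Without that array the mean of Med14 was -0.16. Other tested Med14 probes averaged 0.13 and 0.093, each positive on 3 of 4 arrays. Med17 of the head averaged 0.17 ± 0.036. Med1, the target of nuclear receptors, averaged -0.061 ± 0.12, and Med12 of the kinase module 0.026 ± 0.14. Med8 of the head read -0.20, -0.14, -0.14 and -0.24, a mean of -0.18 ± 0.013 (SD, n = 2; limma adjusted p = 0.277). Med9 of the middle read -0.33, -0.21, -0.074 and -0.19, a mean of -0.20 ± 0.10 (limma adjusted p = 0.253). Both were below 0 on all 4 arrays without passing the test.

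Single member ratios varied with the dye orientation. A single sign on all 4 arrays was seen for 9 members, or 16.1%, against 28.5% of all genes. Of these, Taf11 and Gtf2f1 were above 0, and Gtf2h1, Gtf2h4, Polr2d, Polr2f, Med8, Med9 and Med15 below it. A sign that followed the dye on all 4 arrays was seen for 17 members, or 30.4%, against 21.1% of all genes, as for Taf12 with 0.31, -0.28, 0.33 and -0.33. Between the 2 dye orientations the member means had a Pearson r of -0.34 (n = 56 genes), and between the 2 sets an r of 0.31. Over all 13599 genes these were 0.28 and 0.60. The points are genes on the same 4 arrays and are not independent replicates. The SD of the means was 0.14 over members and 0.22 over all genes, while the median limma SE of a member was 0.095.

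The next comparison asked whether the ratios differed between the stage-matched and the age-matched pools. For 0 of 56 members the difference passed an adjusted p of 0.05 in limma, against 2.11% of all genes. The error of this test comes from dye-exchanged arrays of the same pools and holds no variation between embryos. At an unadjusted p under 0.05 there were 5 members, Taf7, Gtf2e2, Gtf2h1, Gtf2h3 and Med21, or 8.93% against 11.1% of all genes. Taf7, which binds Taf1 within TFIID, averaged 0.36 in the stage-matched set and -0.19 in the age-matched set, the largest member difference at 0.54 (limma adjusted p = 0.0714). The probes of Taf7 did not share this pattern. Its other tested probes differed between the sets by -0.32 and 0.055 (limma adjusted p = 0.477 and 0.962). By brightest probes, opposite signs in the sets on all 4 arrays were seen for Gtf2e2 and Cdk7, 3.57% of members and 5.71% of all genes. A second tested Cdk7 probe was negative in both set means.

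**Figure D3:**
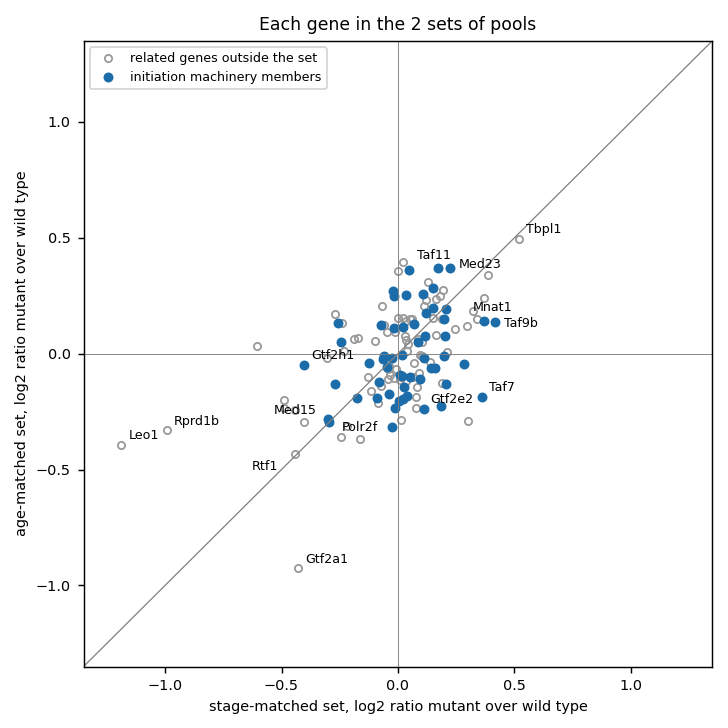
Mean log2 ratio of mutant over wild type in the stage-matched set (x axis) and the age-matched set (y axis) for the 56 tested members (filled) and 79 related transcription genes (open); the grey diagonal marks equal ratios. Members crowd round 0, with Polr2f and Med15 near -0.30 in both sets, while Leo1, Rprd1b, Gtf2a1, Rtf1 and Tbpl1 lie outside the crowd.

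Sex-linked genes differed between the sets, and 4 members lie on the X chromosome. Xist, the RNA that coats the inactive X chromosome, read -0.75 and -1.25 on the stage-matched arrays, and 0.53 and 1.02 on the age-matched arrays. The Y-linked genes Ddx3y and Eif2s3y were above 0 on both stage-matched arrays and below it on both age-matched arrays. The X-linked members had set means, stage-matched first, of 0.010 and -0.094 for Taf1, 0.42 and 0.14 for Taf9b, -0.073 and 0.12 for Med12, and 0.046 and 0.36 for Med14. The part of the pools' sex in these values was not tested. Without the X-linked members the median was -0.00064, a check added after the data were seen. On chromosome 19, which holds Btaf1, lie Taf5 at 10.1 Mb and Polr2g at 28.2 Mb from the Btaf1 probe, with means of 0.095 and 0.098.

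Tissue markers passed the test where the members did not. Of 12 heart genes 10 fell in the mutant, with a median of -1.31, and of 11 genes of visceral endoderm and yolk sac 11 fell, with a median of -1.04. Of 5 tested primitive red cell genes 2 fell (median -0.75). Of 4 trophoblast and 4 decidua genes 0 passed the test, with medians of -0.14 and -0.15, and 0 of 5 notochord and gut genes did, with a median of 0.30. The median of the members stayed at 0.029 in the stage-matched and -0.021 in the age-matched set, beside heart medians of -0.79 and -1.80 in the same sets. The part of tissue makeup in the member values was not tested.

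Genes next to the members in the pathway were taken as 5 lists, and the share called there was near that of all genes. Of 79 tested genes, 1 rose and 4 fell, 6.33% against the 4.91% of all genes, with a median of 0.012. Among 8 tested initiation genes outside the members, Tbpl1 rose and Gtf2a1 fell. The other Mediator genes (0 of 17) and the SAGA genes (0 of 15) gave no call, with medians of 0.0042 and -0.053. Of 25 pausing and elongation genes Leo1 and Rtf1 fell, and of 14 genes of polymerase assembly and tail phosphatases Rprd1b fell.

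**Figure D4:**
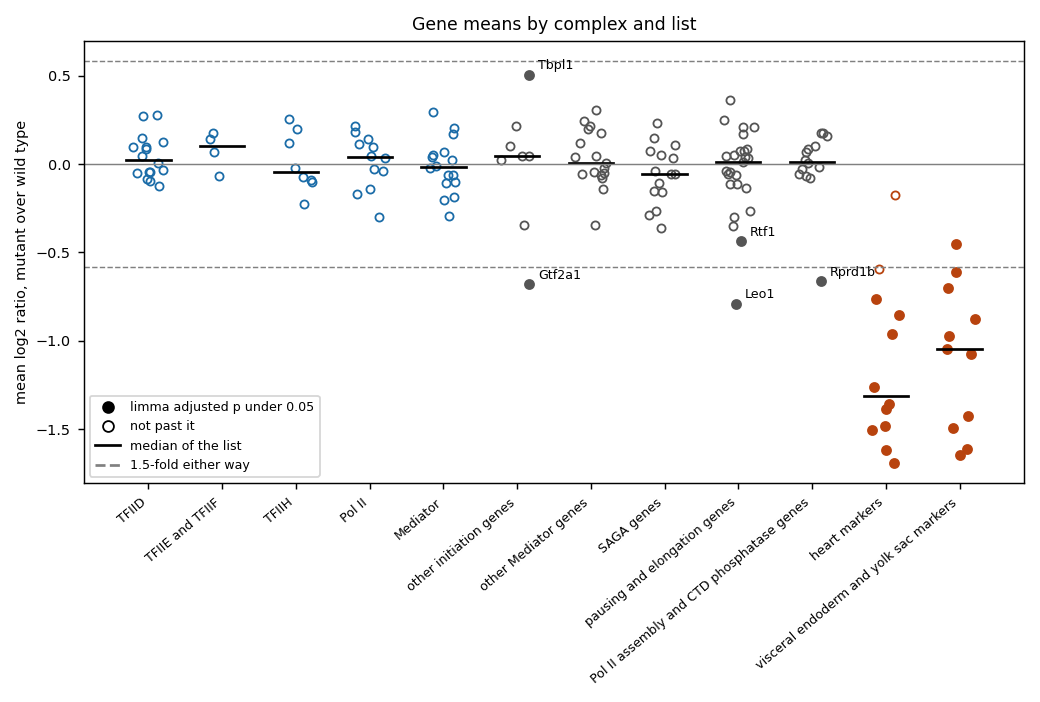
Mean log2 ratio of mutant over wild type for each tested gene (circles) of the 5 member complexes (blue), 5 lists of related genes (grey) and 2 marker lists (orange); filled circles passed a limma adjusted p of 0.05, black lines are list medians and dashed lines 1.5-fold. No circle of the member complexes is filled, 5 of the related genes are, and 10 heart and 11 visceral endoderm and yolk sac markers are filled and negative.

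TBP and its direct partners were measured among the other initiation genes. Tbp read -0.0048, 0.21, 0.066 and -0.091, with a mean of 0.046 ± 0.083 (SD, n = 2; limma adjusted p = 0.813). Gtf2b, which encodes TFIIB, averaged 0.024 ± 0.021 (limma adjusted p = 0.905). Tbpl1, a relative of TBP (minus strand, chr10:22425312-22425371), was above 0 on all 4 arrays at 0.69, 0.35, 0.67 and 0.32. Its mean was 0.51 ± 0.017 (SD, n = 2), 1.42-fold higher in the mutant (limma adjusted p = 0.0256). Other tested Tbpl1 probes averaged 0.22 and 0.16 without passing the test (limma adjusted p = 0.195 and 0.574). The probe with the mean of 0.16 was at 0.50 in the stage-matched set and -0.18 in the age-matched set. Its difference between the sets was 0.68 (limma adjusted p = 0.0112).

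Gtf2a1, the large subunit of TFIIA, which steadies TBP on the promoter, was below 0 on all 4 arrays. The probe (minus strand, chr12:92794645-92794704) read -0.63, -0.24, -0.98 and -0.87, with a mean of -0.68 ± 0.35 (SD, n = 2), 1.60-fold lower in the mutant (limma adjusted p = 0.0274). The scanner's gene name for this probe is 6330549H03Rik, and the reference names assign it to Gtf2a1. The tested probe that the scanner names Gtf2a1 averaged -0.39 and did not pass (limma adjusted p = 0.0745). It was below 0 on all 4 arrays as well. The small TFIIA subunit Gtf2a2 averaged 0.10 ± 0.069 (limma adjusted p = 0.571). Without the stage-matched array with the mutant in Cy5, Tbpl1 and Gtf2a1 no longer passed (limma adjusted p = 0.102 and 0.0744).

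Leo1 and Rtf1 encode subunits of the PAF1 complex, which travels with elongating polymerase. Leo1 (plus strand, chr9:75314032-75314091) read -1.29, -1.09, -0.45 and -0.34, with a mean of -0.79 ± 0.56 (SD, n = 2), 1.73-fold lower in the mutant (limma adjusted p = 0.0394). It was lower in the stage-matched than in the age-matched set by a difference of -0.80 (limma adjusted p = 0.00126). Rtf1 read -0.18, -0.71, -0.21 and -0.65, with a mean of -0.44 ± 0.0068 (limma adjusted p = 0.0378), and its 5 tested probes averaged from -0.52 to -0.058, with 3 of them past the test. Of the other subunits, Paf1 averaged -0.30 and Ctr9 -0.11 (limma adjusted p = 0.107 and 0.506), and Cdc73 averaged 0.075 (limma adjusted p = 0.684). Without the stage-matched or the age-matched array with the mutant in Cy3, Rtf1 no longer passed (limma adjusted p = 0.152 and 0.180).

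Rprd1b, which binds the phosphorylated polymerase tail (plus strand, chr2:157902024-157902083), read -1.01, -0.97, -0.96 and 0.30. It was low on 3 of 4 arrays, with a mean of -0.66 ± 0.47 (SD, n = 2; limma adjusted p = 0.0453). Its second probe averaged -0.30 (limma adjusted p = 0.183). Rprd1b also differed between the sets, by -0.66 (limma adjusted p = 0.0182). Without the age-matched array with the mutant in Cy5, none of the 5 genes passed, with limma adjusted p from 0.214 for Gtf2a1 to 0.679 for Rprd1b; that setting called 0.105% of all tested probes.

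The ends of the lists that did not pass the test ran from -0.36 to 0.36. Among the other Mediator genes Ccnc, the cyclin of the kinase module, averaged 0.31 and Med16 of the tail -0.34 (limma adjusted p = 0.104 and 0.0852). In SAGA, Eny2 averaged 0.23 and Atxn7 -0.36 (limma adjusted p = 0.178 and 0.0833). Ell3, an elongation factor, averaged 0.36 (limma adjusted p = 0.063) and Rprd2, a relative of Rprd1b, 0.18 (limma adjusted p = 0.313). Between the sets, Med20 differed by 0.59 and Atxn7l3 by -0.64 (limma adjusted p = 0.0389 and 0.0214).

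The members' promoters had features that the choice of genes did not use. RefSeq promoters (GRCm38.p6, 250 bases before to 50 after the start) were found for 45 of 57 members, 53 promoters in all. Their median GC content was 60.7%, against 52.7% over 32851 mouse promoters, and their median observed over expected CpG ratio was 0.87, against 0.384. On either strand, GGGCGG, the core of GC boxes, was held by 73.6% of member promoters and 35.7% of all. CCGGAAG, a sequence bound by ETS factors, was held by 35.8% and 8.86%. TATAAA was held by 15.1% and 13.6%, and CCAAT by 34.0% and 37.4%. The comparison promoters were not limited to the genes tested here, so these shares do not set the members apart from other tested genes. A match of letters is a description and not evidence of binding.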

How the data were processed

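The members and gene lists were chosen with earlier results of these data known. Per the file headers, the scanner gave an intensity of spot and local background in both dyes, without normalization. The processed intensity columns had background, spatial trend and dye bias removed by the software, as the deposited files' headers state. The deposited log10 ratio is that of the processed signals, with its sign turned on dye-exchanged arrays in the authors' value table, and served as a check (largest difference 5e-06). Software versions differ between the submitters' processing notes (Feature Extraction 9.5.3) and the file headers (10.5.1.1).

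From the unprocessed signals, log2 ratios were made in R 4.3.3 with limma 3.58.1, by normexp (offset 50) and within-array loess in which control spots had no weight; marked spots were left out and repeated spots averaged. Log2 intensities are of these corrected values, not as deposited. A probe was tested if the mutant channel, or the wild-type channel, stood well above background on each of the 4 arrays: 21940 of 41174 did, and 36 more had a marked spot. Dye-exchanged arrays were averaged, and limma was run two-sided on the 2 set means (1 residual and 7.12 prior degrees of freedom; threshold 0.05). The p-values weigh a mean against the spread between 2 pairs of pools, moderated by limma toward a value shared by all tested probes. The SE of a gene can therefore lie far from its SD between the sets. For Polr2f the SD was 0.0015 and the limma SE 0.091. All 4 arrays sat on 1 slide. The difference between sets used all 4 arrays with terms for set and dye.

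Named were members past the threshold, the 6 highest and 6 lowest, the ends of each complex, members of central role, paralogs, members with tested probes of opposite sign at least 0.5 apart, and members whose sets had opposite signs on all 4 arrays; of the related lists, genes past the threshold and the ends, with Tbp, Gtf2b and Gtf2a1. Others complete a count or a pair and were named after their values were seen. Related genes were named by a reference table (GRCm38.p6, names only). Alternatives were other background corrections, median centring, processed signals, other filters, leaving out each array, all probes of a gene, each set alone, and names from the reference table. With an array left out, its set no longer held both dye orientations, so the dye did not cancel there. A change in such a setting cannot be told apart from an effect of the dye.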

Additional observations from a re-analysis of the deposited data

Results flagged for a closer look

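Gtf2e2 and Cdk7 drew attention because, for the brightest probe, both stage-matched arrays lay above 0 and both age-matched arrays below it. The stage-matched minus age-matched difference was 0.35 for Gtf2e2 (limma adjusted p = 0.41) and 0.22 for Cdk7 (limma adjusted p = 0.719), so neither passed the test of the difference. A second tested Cdk7 probe did not share the pattern, with set means of -0.047 (stage-matched) and -0.013 (age-matched).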

How the results depend on the processing

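Across the 10 settings with another correction, filter or left-out array, 0 members passed in either direction, except that Taf9b passed as 1 member higher in the mutant with the processed signals (0.69, limma adjusted p = 0.0278). The median over the members was -0.069 with median centring, -0.021 in the age-matched set alone, and from -0.021 to 0.043 when each array was left out in turn. Of the 29 named members tested, 19 kept their sign in every setting and 10 changed it in at least 1 (Taf1, Taf4b, Taf6, Taf10, Gtf2e1, Gtf2e2, Polr2b, Med1, Med12 and Med14). The 5 calls among the related genes became 8 with offset 10, 8 with the processed signals, 2 with no filter on dim probes and 0 without background correction, and from 0 to 5 when each array was left out. Leaving out the stage-matched array with the mutant in Cy5 left 3. The share of all tested probes that was called moved the same way in the settings with another correction. It was 4.81% in the main setting, 9.07% with offset 10, 8.31% with the processed signals and 0.283% without background correction. With no filter on dim probes it was also below that of the main setting. Where few probes of any kind were called, a count of 0 members says little about the members. The number of arrays, 4 from 2 pairs of pools, limits what could be called.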
